A study of Danio rerio with 9 samples.

Results

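Impurity Q is one of the related substances of azithromycin, and its transcriptome comparison against DMSO in zebrafish larval liver is described here by the genes found in pathways. All rows of the deposited impurity Q table were taken from the databases KEGG, Reactome, and PANTHER, together with every differentially expressed gene (DEG) named in them, matched by Entrez identifier. They comprised 916 terms and 420 genes, out of 1234 terms and 1154 genes that appear in any of the 8 compound tables of the series. Of the 420 genes, 212 were upregulated and 208 were downregulated, so 50.5% were upregulated.

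Wild-type AB larvae were exposed at 2 mM to impurity Q, azithromycin, or impurity J, I, R, L, S, or F for 72 h, beginning at 3 dpf, or received DMSO, and the liver was dissected at 6 dpf. Each of the 9 conditions is represented by 1 RNA-seq library, so no difference below has a replicate check and none was tested. The tables name a gene and its direction, with no expression value, fold change, or read number. The DMSO library is shared by all 8 comparisons, and its own file was not used here.

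The study asked which impurities of a macrolide carry a liver risk, and the comparison of impurity Q with DMSO is 1 of its liver profiles. Macrolide antibiotics block protein synthesis on the bacterial ribosome, and drugs of this class can cause liver injury in patients. The liver makes most plasma proteins, stores and releases glucose, builds and burns fatty acids, and clears foreign compounds, mainly through its hepatocytes. Growth factor and insulin signals reach these programs through Ras and the MAPK cascade and through phosphatidylinositol 3-kinase (PI3K), while ribosomes and proteasomes set how fast proteins are made and removed. The roles named for single genes are those known for the vertebrate family, mostly from mammals.

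A gene counts as a DEG here where the authors called it one, at a fold change of at least 2 according to their methods. DEGs outside all pathways are absent from the table, and a gene that is not listed is not shown to be unchanged. A one-sided Fisher's exact test returns all the deposited p-values of the impurity Q table when the whole list holds 1094 DEGs and the background holds 18311 genes. By these recovered totals, 5.97% of the background genes were DEGs for impurity Q, and 38.4% of the DEGs belonged to a term. Azithromycin had 5.92% of the background genes as DEGs, impurity J had 5.81%, impurity I had 5.92%, impurity R had 5.85%, impurity L had 5.51%, impurity S had 5.78%, and impurity F had 5.67%. The length of the list of impurity Q was thus close to that of the other compounds, and its 420 listed genes compared with 378 to 427 in the other tables. The share of upregulated genes, 50.5% for impurity Q, was 48.7% to 52.3% for the others.

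KEGG gave 134 of the terms and 304 of the genes, with 155 upregulated and 149 downregulated. Reactome gave 725 terms and 247 genes, with 115 upregulated and 132 downregulated, and PANTHER gave 57 terms and 27 genes, with 13 upregulated and 14 downregulated. A gene may belong to several databases. Terms were set into 14 groups by subject, which together hold 273 of the genes (137 upregulated and 136 downregulated). The remaining 147 genes (75 upregulated and 72 downregulated) belong to other terms. The groups were drawn up with results of these data known, so their counts are descriptions. Lipid metabolism, DNA repair, and transcription and RNA processing held more upregulated than downregulated genes, whereas receptors and synaptic transmission, muscle contraction, and proteasome and ubiquitin held more downregulated genes. In all, 9 of the 14 groups held more downregulated genes. The groups overlap, with 211 of the 273 genes in 1 group and the rest in several. The downregulated *hrasb* counts in 5 groups, and *itpr3*, *raf1a*, *rhoab*, and *hspa8*, also downregulated, count in 4 each. The 9 groups are therefore not separate results.

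**Figure D1:**
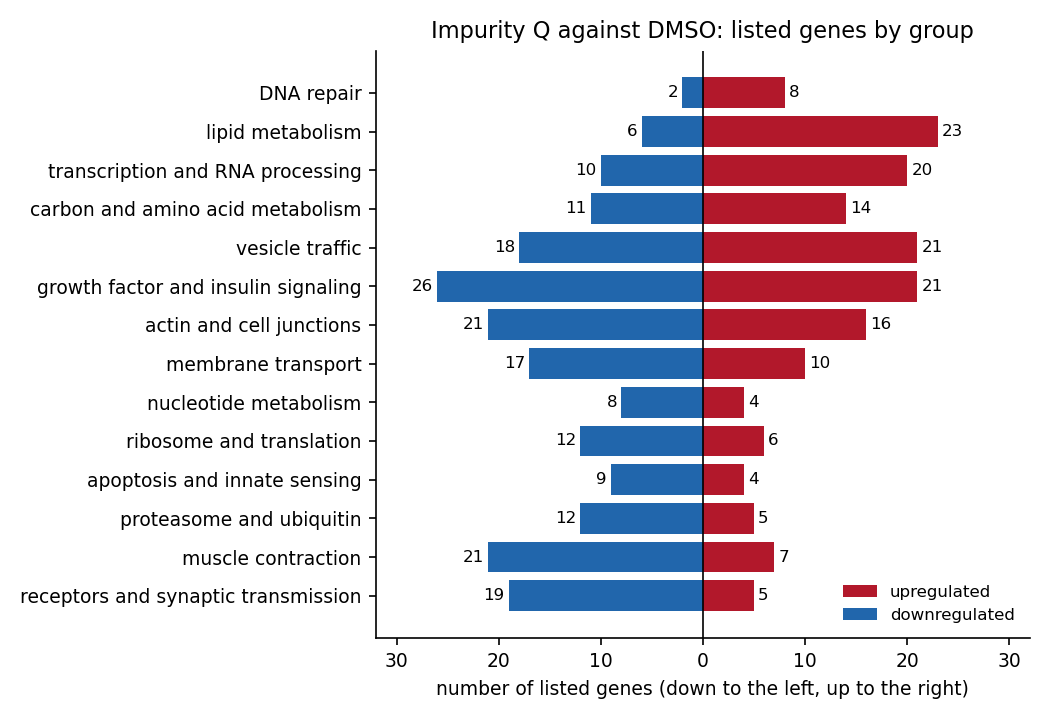
Number of genes listed for impurity Q against DMSO in each of 14 groups of terms, with upregulated genes as bars to the right and downregulated genes as bars to the left. Lipid metabolism had 23 upregulated and 6 downregulated genes in its 6 terms (30 and 17 in all lipid terms), and receptors and synaptic transmission had 5 upregulated and 19 downregulated genes.

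More genes of lipid metabolism were upregulated than downregulated for impurity Q, and the balance depended on which terms were counted. In the 6 terms of the group, 23 of 29 listed genes were upregulated (79.3%) and 6 were downregulated, beside 50.5% upregulated over all listed genes. With all lipid terms of KEGG and the broad Reactome lipid term, a set chosen after the data were seen, 30 genes were upregulated and 17 were downregulated (63.8% upregulated). This wider set added 18 genes, 7 upregulated and 11 downregulated, the downregulated ones including *fads2*, *hmgcra*, *pparab*, *pafah1b1a*, *cers2b*, and *st3gal5*. In the KEGG term for glycerophospholipid metabolism, 9 of 79 background genes were listed (11.4%), and 7 of them were upregulated. These included *cds1* and *pisd*, enzymes of phospholipid synthesis, *dgkaa*, a diacylglycerol kinase, and *gpd1b*, which makes glycerol 3-phosphate. The downregulated members were *lpin1*, a phosphatidate phosphatase that yields diacylglycerol, and *lypla2*, a lysophospholipase, while its relative *lypla1* was upregulated. *lpin1* was downregulated in the impurity Q table and in each of the other 7 tables, and *pisd* was upregulated in all 8.

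All 5 genes listed in the Reactome term for fatty acid, triacylglycerol, and ketone body metabolism were upregulated, of 72 background genes. The listed share of this term was near the 5.97% over all background genes. *pparaa* encodes a PPARα, the nuclear receptor that switches on fatty acid oxidation, and *cpt2* encodes the inner membrane carnitine palmitoyltransferase that admits fatty acids to oxidation. *dgat2* performs the last step of triacylglycerol synthesis, and *hsd17b12a* belongs to the elongation of long fatty acids. The fifth gene, *tbl1xr1a*, is a transcriptional cofactor. *pparaa* was also upregulated for impurities J, I, and L, *cpt2* for azithromycin and impurity R, and *dgat2* for azithromycin and impurities I and F. Of the genes in the wider set alone, the second PPARα gene, *pparab*, was downregulated for impurity Q, as it was for impurities I and L. The desaturase gene *fads2* and *hmgcra*, whose product is the rate-limiting enzyme of cholesterol synthesis, were downregulated as well. *fads2* was otherwise listed only as downregulated for impurity I, and *hmgcra* as downregulated for impurities J, I, L, and F.

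In sphingolipid metabolism of KEGG, 5 of 52 background genes were listed. *degs2*, *acer1*, *gba2*, and *sgpl1*, which act in ceramide synthesis, ceramide cleavage, glucosylceramide cleavage, and the final breakdown of sphingosine 1-phosphate, were upregulated, and the sphingomyelinase gene *smpd5* was downregulated. *degs2* and *acer1* were otherwise listed only for impurity I, also as upregulated. The glycosphingolipid term for the lacto and neolacto series had the highest share among the KEGG terms with at least 4 listed genes and 10 background genes, with 4 of 18 (22.2%). Its upregulated genes were the galactosyltransferase genes *b4galt3* and *b4galt4* and the N-acetylglucosaminyltransferase gene *b3gnt2b*, and *b3gnt3* was downregulated. *b4galt4* was upregulated for impurity Q and downregulated for impurities J, I, L, S, and F, and *b4galt3* was listed for impurity Q alone. The prostaglandin synthase gene *ptgs2b* (cyclooxygenase 2) was upregulated for impurity Q and was in none of the other tables.

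Set beside the same terms in the other tables, the 23 upregulated and 6 downregulated genes of impurity Q compared with 13 upregulated and 9 downregulated genes for azithromycin, while impurity J had 9 and 14, impurity I had 18 and 9, impurity R had 11 and 7, impurity L had 13 and 11, impurity S had 11 and 15, and impurity F had 9 and 10. The upregulated share was 79.3% for impurity Q and 39.1% to 66.7% for the others, and in the wider set 63.8% for impurity Q and 36.1% to 59.4% for the others. These counts rest on 1 library each and on the same DMSO library, and the difference was not tested.

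**Figure D2:**
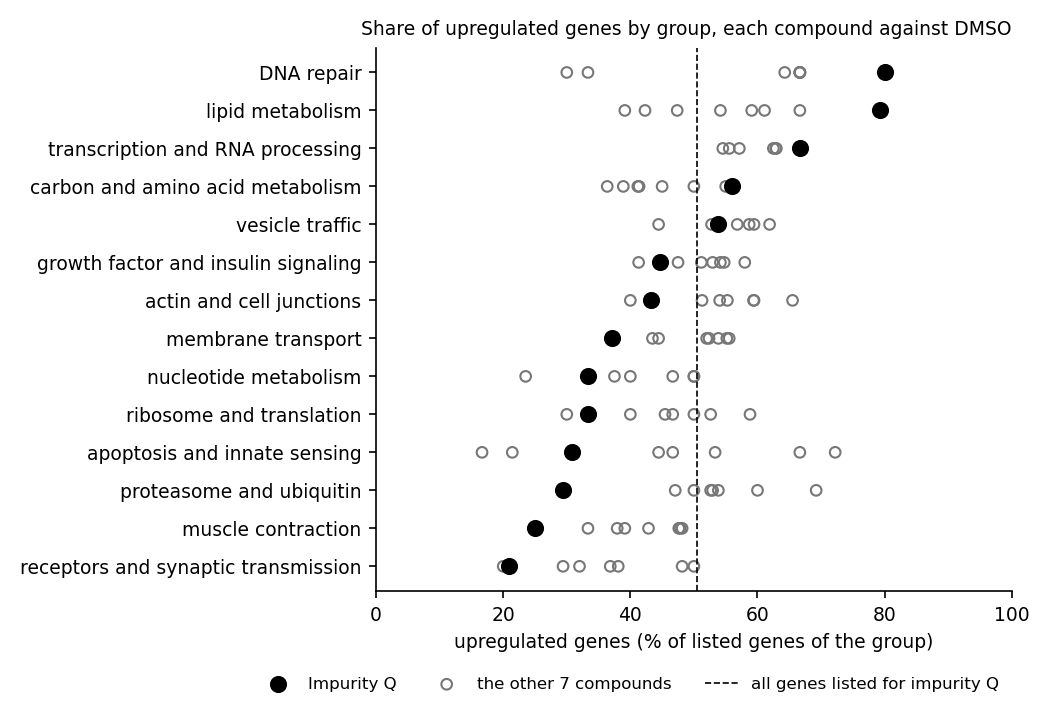
Upregulated genes as a percent of the listed genes of each group, for impurity Q (filled points) and for each of the other 7 compounds (open points), all against the same DMSO library. The dashed line is the 50.5% upregulated over all genes listed for impurity Q. The filled point lies at 79.3% for lipid metabolism, where the open points lie at 39.1% to 66.7% (63.8%, against 36.1% to 59.4%, with all lipid terms), and at 29.4% for proteasome and ubiquitin, where they lie at 47.1% to 69.2%.

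Growth factor and insulin signaling was the largest group, with 47 listed genes, of which 21 were upregulated and 26 were downregulated (44.7% upregulated). Some of the downregulated genes act between receptors and Raf. They were *shc1*, an adaptor that binds activated receptors, *rasgrf1*, an exchange factor that loads Ras, and *hrasb*, a Ras GTPase. The genes *raf1a* and *araf*, for Raf kinases that Ras activates, were downregulated too. Also downregulated were *pik3r1* and *pik3r2*, the regulatory subunits of PI3K, *mapk14b*, a p38 MAP kinase, *rhoab*, a small GTPase, and *max*, the partner of Myc. The kinases *pak2b* and *rps6ka1* were upregulated, while their relatives *pak1* and *rps6ka3a* were downregulated. *ppp3ccb*, a calcineurin subunit, *dusp7*, a phosphatase that acts on MAP kinases, *bdnf*, a neurotrophin, and *ptk2ab*, a focal adhesion kinase, were also upregulated.

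The KEGG term for ErbB signaling listed 9 of 94 background genes, with 2 upregulated and 7 downregulated. Insulin signaling listed 10 of 144 (6.94%), near the 5.97% over all background genes, with 2 upregulated and 8 downregulated. Insulin signaling added *g6pca.1*, a glucose-6-phosphatase that releases glucose from the liver, and *exoc7*, an exocyst subunit, to the downregulated genes. Its upregulated genes were *prkag2a*, a subunit of the energy sensor AMPK, and *eif4e1c*, a cap-binding protein. MAPK signaling listed 20 of 269 background genes (7.43%), with 8 upregulated and 12 downregulated. Phosphatidylinositol signaling listed 10 of 73 (13.7%), with 4 upregulated and 6 downregulated. In FoxO signaling, 15 of 151 background genes were listed (9.93%), with 6 upregulated and 9 downregulated. The downregulated genes *hrasb*, *raf1a*, *pik3r1*, and *pik3r2* belong to the ErbB, insulin, and FoxO terms alike, so the counts of these terms are not separate results.

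*hrasb* was downregulated for impurity Q and for impurities L and F, and *pik3r2* for impurity Q and impurity F. *pik3r1* was downregulated for impurity Q and for azithromycin and impurities J, I, L, S, and F. *shc1* was downregulated for impurities Q and R, whereas azithromycin and impurities J, I, L, and F had it upregulated. *rps6ka1* was upregulated for impurities Q and L and downregulated for azithromycin and impurities I, R, S, and F. Over the whole group, the upregulated share was 44.7% for impurity Q, and 41.3% (impurity F) to 58.0% (impurity L) for the others. For ErbB signaling the counts were 2 upregulated and 7 downregulated genes for impurity Q, against 6 and 7 for azithromycin, and impurity J had 3 and 6, impurity I had 7 and 2, impurity R had 8 and 4, impurity L had 4 and 7, impurity S had 4 and 5, and impurity F had 5 and 7.

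The study centers on *fosab*, the zebrafish counterpart of the immediate-early gene *c-fos*. *fosab* was not listed in the impurity Q table. Azithromycin and impurity L had it listed as upregulated, and the other 5 tables did not list it. *fosab* belongs to terms of these databases, so it was not among the DEGs entered for impurity Q, and the reason was not worked out. The absence does not show that it was unchanged, because the table holds no level or fold change for it. The study itself reports *fosab* as upregulated by impurities Q, J, I, R, and L, and the fold changes given there are not used here. The listing here differs from that report for impurities Q, J, I, and R. Of 18 genes for AP-1 and related bZIP proteins, only *mafga*, a small Maf gene, was listed for impurity Q, as downregulated, and it was also downregulated for azithromycin and impurities J and S. The orphan receptor gene *nr4a3* was downregulated for impurity Q, as for azithromycin and impurity J. The clock genes *per1b* and *nr1d1* were upregulated, 2 of 23 clock genes looked for, with *nr1d1* also upregulated for azithromycin and impurities J, I, R, and L.

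Ribosomal protein genes were the densest large set. In the KEGG term for the ribosome, 17 of 112 background genes were listed (15.2%), the highest share among the 32 listed KEGG terms with at least 100 background genes, of which 18 exceeded 5.97%. Of the 17, 6 were upregulated and 11 were downregulated. The small subunit genes *rps2*, *rps8a*, *rps8b*, *rps15*, *rps18*, and *rps27.2* were downregulated, and *rps19* was upregulated. Of the large subunit genes, *rpl7a*, *rpl10*, *rpl21*, and *rpl29* were downregulated and *rpl6*, *rpl13*, *rpl15*, and *rpl37* were upregulated. The mitochondrial ribosomal gene *mrpl11* and the initiation factor gene *eif3i* were downregulated too.

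*rpl7a* was downregulated for impurity Q and upregulated in each of the other 7 tables. *rps18* was downregulated in the impurity Q table and in all 7 others, and *rps2* in the impurity Q table and in 6 others, with impurity S the exception. *rps8b*, *rpl37*, and *eif3i* were listed for impurity Q and for no other compound. For the ribosome term, 6 genes were upregulated and 11 downregulated for impurity Q, against 10 and 11 for azithromycin, and impurity J had 5 and 6, impurity I had 10 and 7, impurity R had 3 and 13, impurity L had 6 and 8, impurity S had 9 and 9, and impurity F had 6 and 7. Ribosomal protein genes have near-identical copies in vertebrate genomes, and *rps8a* and *rps8b* are a duplicated pair, so reads could be divided among copies and the direction of a single gene is uncertain.

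**Figure D3:**
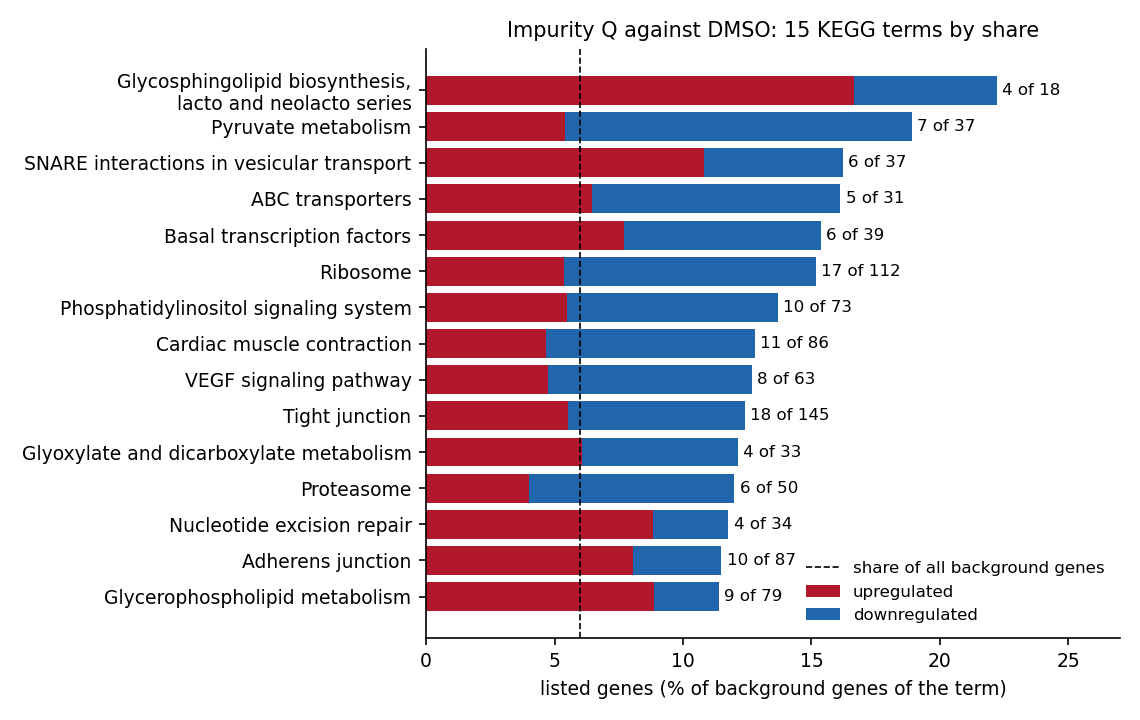
Listed genes as a percent of the background genes of each KEGG term for impurity Q against DMSO, for the 15 terms with the highest share among those with at least 4 listed and 10 background genes, with the upregulated part to the left of the downregulated part in each bar. The dashed line is the 5.97% of all background genes that were DEGs. Shares run between 22.2% for the glycosphingolipid term and 11.4% for glycerophospholipid metabolism, and the ribosome stands at 15.2% with 17 of 112 genes.

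The proteasome degrades proteins tagged with ubiquitin, and 6 of its 50 background genes were listed in KEGG (12.0%). *psma1*, an α subunit of the core particle, and *psmc3*, an ATPase of the cap, were upregulated. The core β subunit genes *psmb2* and *psmb7*, the cap gene *psmd1*, and *psme4b*, which encodes an activator of the core, were downregulated. With ubiquitin ligases the group held 17 genes, 5 upregulated and 12 downregulated (29.4% upregulated). Among the ligase components, *keap1b*, the adaptor that restrains the oxidative stress factor Nrf2, *fbxw7*, and *pias1b* were upregulated, and *fbxw11b*, *birc2*, *trip12*, and *ddb2* were downregulated. The upregulated share for the group was 29.4% for impurity Q and 47.1% to 69.2% for the others. *psme4b* was downregulated for impurities Q and L, while azithromycin and impurities J, I, S, and F had it upregulated, and *keap1b* was listed for impurity Q alone.

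A few signaling and proteasome genes make up many of the terms. A gene listed for impurity Q belonged to a median of 4 terms, 90 genes belonged to 1 term, and 13 belonged to at least 50. *psma1* was in 156 terms, *psmb2* and *psmb7* were in 155 each, *psme4b* was in 148, and *hrasb* was in 120. *psma1*, *psmb2*, and *psmb7* stood together in 154 of the 725 Reactome terms (21.2%). As a result, 17 terms listed the same 7 genes (*hrasb*, *psma1*, *psmb2*, *psmb7*, *psme4b*, *rasgrf1*, and *shc1*), and the 916 terms held 497 distinct sets of genes. Among terms with at least 5 listed and 10 background genes, 115 had at least 80% of their genes in 1 direction, 16 mostly upregulated and 99 mostly downregulated. Of these 115 terms, 77 contained a proteasome gene, and they held 58 distinct sets. With *psma1*, *psmb2*, *psmb7*, and *psme4b* left out, a setting chosen after the data were seen, 69 such terms were found, 17 mostly upregulated and 52 mostly downregulated.

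**Figure D4:**
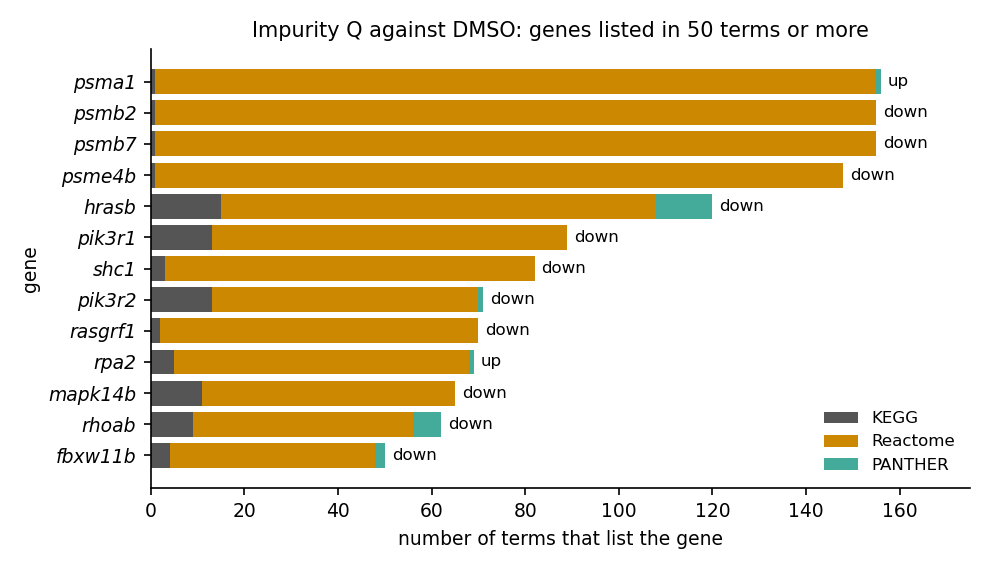
Number of terms that list each gene for impurity Q against DMSO, for the 13 genes in at least 50 terms, divided by database, with the direction of the gene written beside its bar. *psma1* leads with 156 terms, and 11 of the 13 genes were downregulated.

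Genes of muscle contraction were mostly downregulated, 21 of 28 listed (7 upregulated, 25.0%). Each of the other 7 tables also had more downregulated than upregulated genes in the group, with 33.3% (impurity L) to 48.1% (azithromycin) upregulated. Of the 28 genes, 7 also belong to growth factor and insulin signaling (1 upregulated and 6 downregulated), which left 6 upregulated and 15 downregulated genes. All 5 genes in the Reactome term for striated muscle contraction, of 23 background genes, were downregulated. They were the myosin heavy chain genes *vmhc* and *smyhc2*, the light chain gene *mylz3*, and the troponin genes *tnnt3b* and *tnni2b.2*. In cardiac muscle contraction of KEGG, 11 of 86 background genes were listed, 4 upregulated and 7 downregulated. The downregulated genes included *tpma* (tropomyosin), *vmhc*, and the calcium channel genes *cacna1da* and *cacnb2a*. Its upregulated genes were the sodium pump genes *atp1a1a.1* and *atp1a2a*, the cytochrome oxidase gene *cox5ab*, and *cacna2d3*. Another sodium pump gene, *atp1b2b*, and another cytochrome oxidase gene, *hm* (now *cox5ba*), were among the downregulated genes of this term. Vascular smooth muscle contraction listed 11 of 114 background genes, with *acta2* and *gna14* upregulated and 9 genes downregulated. Of the downregulated genes, *raf1a*, *araf*, *rhoab*, *itpr3*, *cacna1da*, *arhgef12b*, *myl12.1*, and *prkcq* also belong to other groups, and only *MLC3SM* does not. The upregulated *gna14* also belongs to receptors and synaptic transmission.

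Contractile genes mark muscle rather than hepatocytes, and the library came from dissected tissue. Of 12 skeletal muscle markers, 3 were listed for impurity Q, namely *mylpfa*, *tnnt3b*, and *tpma*, and all were downregulated. The other 9, among them *ckma*, *actc1b*, and *myl1*, were listed for no compound, so their absence here says nothing about muscle in this sample. The muscle genes *actn3b* and *ryr1a*, outside this list, were upregulated. *mylpfa* was downregulated for impurities Q, R, and S and upregulated for azithromycin and impurities J, I, L, and F, *smyhc2* was downregulated in the impurity Q table and in all 7 others, and *vmhc* was downregulated for impurity Q and azithromycin. In bulk tissue, fewer muscle cells in a sample and less RNA per cell cannot be told apart. The part that carried-over muscle has in these counts was not tested.

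The label liver could not be checked against levels, since the tables have none. Of 16 hepatocyte markers, *tfa* (transferrin) and *fgb* (fibrinogen β) were listed for impurity Q, both as upregulated, and *fabp10a*, the liver fatty acid binding protein gene, was in none of the 8 tables. *tfa* was upregulated for impurity Q and downregulated for azithromycin and impurity J. *fgb* was upregulated in the impurity Q table and in 6 others and downregulated for impurity I. No marker of exocrine pancreas (10 genes), intestine (5), erythrocytes (6), leukocytes (5), endothelium (4), or biliary cells (3) was listed for impurity Q. Only 2 of the pancreas markers and 1 of the intestine markers were listed for any compound, and 0 of the erythrocyte, leukocyte, endothelium, or biliary markers. Their absence for impurity Q therefore says little about which cells the sample held. *gcga* (glucagon, of the pancreatic islet), which is outside these lists, was upregulated.

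Secreted proteins and drug metabolism had genes listed in both directions. *serpina1*, the α1-antitrypsin gene, was upregulated, and *serpina7*, of the same family, and *plg* (plasminogen) were downregulated. Of 35 cytochrome P450 and conjugation genes looked for, only *cyp2p6* was listed, as upregulated. Outside that list, *cyp3c3*, *cyp46a1.3*, *cyp24a1*, and the glutathione transferase gene *gsto2* were upregulated. Of these, *cyp46a1.3* belongs to the KEGG term for primary bile acid biosynthesis and *cyp24a1* to that for steroid biosynthesis. The genes *porb*, which encodes a reductase that serves the P450 enzymes, and *aox6*, an aldehyde oxidase gene, were downregulated. None of 18 genes looked for in bile acid synthesis and transport was listed, and *cyp46a1.3* is not among those 18. The gene *abcb11a*, a relative of the bile salt export pump, was upregulated for impurity Q, azithromycin, and impurities S and F. It was downregulated for impurities J, I, and R. *nr5a2*, the liver receptor homolog that acts on bile acid and cholesterol genes, was downregulated and was listed for impurity Q alone.

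In carbon and amino acid metabolism, 14 genes were upregulated and 11 were downregulated (56.0% upregulated). All 5 genes listed for the biosynthesis of amino acids, of 70 background genes, were upregulated, a listed share near the 5.97% over all background genes. They were *psat1* (serine synthesis), *aldh18a1* (proline synthesis), *acy1*, *prps1a* (phosphoribosyl pyrophosphate synthesis), and *gapdh* (glycolysis). *psat1* was listed for impurity Q alone, and *prps1a* was upregulated for impurities Q and S and downregulated for azithromycin and impurities J, I, R, and F. In the other tables this term had 1 to 3 upregulated and 1 to 5 downregulated genes.

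Pyruvate metabolism listed 7 of 37 background genes (18.9%), with 2 upregulated and 5 downregulated. *me2* (malic enzyme) and *aldh9a1b* were upregulated, while *mdh1aa* (malate dehydrogenase), *acss2* (acetyl-CoA synthetase), *glo1* and *hagh*, which detoxify methylglyoxal, and *aldh9a1a.1* were downregulated. *aldh9a1a.1* and *aldh9a1b* are close relatives, so reads may have been shared between them. In the citric acid cycle and respiratory electron transport of Reactome, 7 of 94 background genes were listed. *pdhx*, of the pyruvate dehydrogenase complex, was upregulated and 6 were downregulated, including *ucp2*, *uqcrh*, *pdpr*, and *ndufaf1*. Oxidative phosphorylation in KEGG had the lowest share among the listed KEGG terms with at least 100 background genes, with 3 of 123 (2.44%). The regulators of glycolysis *pfkfb1* and *pfkfb3* were both downregulated, as was *hif1aa*, a subunit of the hypoxia-inducible factor listed for impurity Q alone.

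Nucleotide metabolism had 4 upregulated and 8 downregulated genes. The downregulated genes included *rrm2*, a ribonucleotide reductase subunit, the adenylate kinase genes *ak1* and *ak4*, the guanylate kinase gene *guk1a*, and *polr1a* and *polr1e*, subunits of RNA polymerase I, which transcribes ribosomal RNA. The upregulated genes were *ctps1b*, *prps1a*, *adprm*, and *polr2c*, an RNA polymerase II subunit.

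In transcription and RNA processing, 20 genes were upregulated and 10 were downregulated (66.7% upregulated). Basal transcription factors listed 6 of 39 background genes, with *taf4a*, *taf6*, and *gtf2e1* upregulated and *taf9*, *taf12*, and *gtf2a1* downregulated. RNA transport listed 10 of 131, with 8 upregulated and 2 downregulated, among the upregulated the nuclear pore genes *nup188*, *nup54*, and *aaas*. The upregulated RNA-binding genes included *hnrnpk*, *hnrpkl*, *srsf3a*, and *pabpc1a*. For RNA transport, upregulated genes outnumbered downregulated genes in the impurity Q table and in each of the others, with 7 to 10 upregulated and 1 to 5 downregulated in the other 7. The histone acetyltransferase genes *crebbpa* and *ep300a* were upregulated for impurity Q, and all 6 genes of the Reactome term SUMOylation, of 52 background genes, were upregulated.

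DNA repair had 8 upregulated and 2 downregulated genes in the 3 terms of the group. Azithromycin and impurity L each had 8 and 4 in these terms, and impurity J had 9 and 5. Impurities I and R each had 6 and 3, while impurity S had 3 and 6 and impurity F had 3 and 7. An excess of upregulated repair genes was thus not particular to impurity Q. All repair terms of KEGG, a set chosen after the data were seen, gave 10 upregulated and 4 downregulated genes for impurity Q. Base excision repair, outside the group, listed 3 of 36 background genes, with *hmgb1b* upregulated and *apex1* and *tdg.2*, which act on damaged or mispaired bases, downregulated. All 4 genes listed for the Fanconi anemia pathway, of 45 background genes, were upregulated. They included *fan1*, a nuclease, *brip1*, a helicase, and *rpa2*, which coats single-stranded DNA. *ercc5* and *rad23b*, which act in nucleotide excision repair, and *xrcc4*, which acts in end joining, were upregulated as well, and *ddb2*, which recognizes ultraviolet damage, was downregulated. *ercc5* was upregulated and *ddb2* was downregulated in the impurity Q table and in all 7 others. *fan1* was listed for impurity Q alone, and *rpa2* was otherwise listed only for impurity L, as upregulated. The Fanconi counts were 4 upregulated and 0 downregulated for impurity Q, against 3 and 1 for azithromycin and for impurity J, and impurity I had 2 and 1, impurity R had 1 and 1, impurity L had 2 and 2, impurity S had 0 and 3, and impurity F had 1 and 2.

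**Figure D5:**
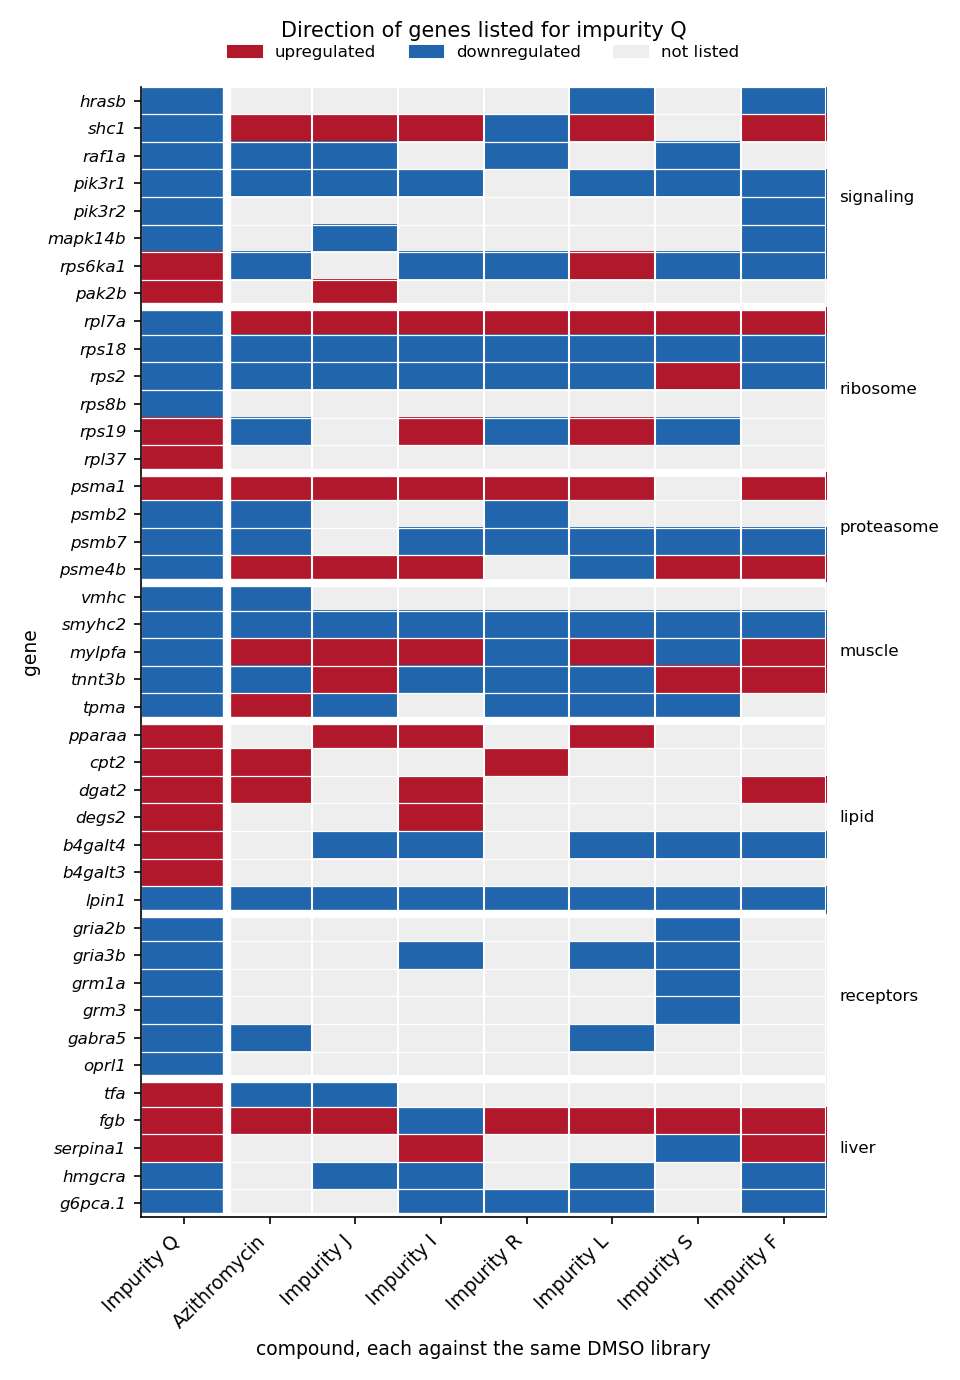
Direction of selected genes listed for impurity Q (left column) and of the same genes for azithromycin and impurities J, I, R, L, S, and F, each against the same DMSO library, with red for upregulated, blue for downregulated, and gray for not listed. The genes were selected after their values were seen. *rpl7a* was downregulated for impurity Q and upregulated for the other 7 compounds, and *rps18*, *smyhc2*, and *lpin1* were downregulated in all 8 columns.

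Receptors and synaptic transmission had 5 upregulated and 19 downregulated genes (20.8% upregulated). This skew was not particular to impurity Q, since impurity F had 4 upregulated and 16 downregulated genes in the group. Impurity J had 5 and 12, impurity L had 8 and 17, and impurity S had 7 and 12. Impurity I had 8 and 13, azithromycin had 13 and 14, and impurity R had 12 and 12. Of the 24 genes listed for impurity Q, 8 also belong to growth factor and insulin signaling (1 upregulated and 7 downregulated). This left 4 upregulated and 12 downregulated genes. The glutamate receptor genes *gria2b*, *gria3b*, *grm1a*, and *grm3*, the GABA receptor gene *gabra5*, the nociceptin receptor gene *oprl1*, the histamine receptor gene *hrh3*, and the leptin receptor gene *lepr* were downregulated. The parathyroid hormone receptor gene *pth1ra* and the serotonin transporter gene *slc6a4a* were upregulated. In the KEGG term for neuroactive ligand-receptor interaction, 10 of 308 background genes were listed (3.25%), below the 5.97% over all background genes, with 1 upregulated and 9 downregulated. In the other tables this term had 1 to 4 upregulated and 2 to 5 downregulated genes. *gria2b*, *grm1a*, and *grm3* were otherwise listed only for impurity S, as downregulated, and *oprl1* for no other compound. These receptors are best known from the nervous system, and their levels in the liver libraries are unknown here.

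Membrane transport had 10 upregulated and 17 downregulated genes (37.0% upregulated). The group includes the proteasome genes *psma1* (upregulated) and *psmb2*, *psmb7*, and *psme4b* (downregulated), which are also counted under proteasome and ubiquitin. Other members that are not transporters include *g6pca.1*, *hmox2a*, and *add1*, all downregulated, and *add2*, upregulated. The counts of the group are therefore not those of transporters alone. ABC transporters listed 5 of 31 background genes (16.1%), with *abca3b* and *abcb11a* upregulated and *abca1a*, *abcc1*, and *abcg4a* downregulated. *abca1a* belongs to the family of the cholesterol exporter ABCA1, and *abcc1* exports conjugated drugs. *abcc1* was downregulated in the impurity Q table and in all 7 others. The water and glycerol channel gene *aqp3a* and the flippase gene *atp8b1* were upregulated for impurity Q alone, and the amino acid transporter gene *slc38a4* was downregulated for impurity Q alone.

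Vesicle traffic was near balance, with 21 upregulated and 18 downregulated genes (53.8% upregulated). SNARE interactions listed 6 of 37 background genes (16.2%), with *vamp1*, *stx10*, *snap23.1*, and *use1* upregulated and *gosr1* and *stx3a* downregulated. The impurity Q table was the only one with a downregulated SNARE gene, since the other 7 had 2 to 4 upregulated and 0 downregulated genes in this term. *gosr1* was downregulated for impurity Q and upregulated for impurities R and F, and *stx3a* was listed for impurity Q alone. Endocytosis listed 23 of 285 background genes, with 11 upregulated, among them *rab5aa* and *rab5b* of the early endosome, and 12 downregulated, among them the clathrin adaptor gene *ap2m1a*. Lysosome listed 4 of 121 (3.31%) and phagosome listed 4 of 130 (3.08%), both with 3 upregulated and 1 downregulated. Of 32 lysosomal hydrolase and membrane protein genes, only *npc2*, a cholesterol carrier of the lysosome, was listed, as upregulated.

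Actin and cell junctions had 16 upregulated and 21 downregulated genes (43.2% upregulated). Of the 37 genes, 14 also belong to growth factor and insulin signaling (5 upregulated and 9 downregulated), which left 11 upregulated and 12 downregulated genes. In adherens junction of KEGG, 7 of 10 listed genes were upregulated, among them *ctnnd1* (p120 catenin) and *actn4* (α-actinin), of 87 background genes. Tight junction listed 18 of 145 background genes (12.4%), with 8 upregulated, including *oclna* (occludin) and *llgl2*, and 10 downregulated, including *tjp1b* (a zonula occludens protein) and *prkcq*. Focal adhesion listed 17 of 203, with 5 upregulated and 12 downregulated. Its downregulated genes include *hrasb*, *raf1a*, *pik3r1*, *pik3r2*, *shc1*, *rasgrf1*, *rhoab*, and *pak1*, all named above for growth factor and insulin signaling. *csnk2b*, the regulatory subunit of casein kinase 2, was upregulated and was listed for impurity Q alone, while the catalytic subunit gene *ck2a1* was downregulated.

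Apoptosis and innate sensing had 4 upregulated and 9 downregulated genes. Of the 13 genes, 7 also belong to growth factor and insulin signaling, and all 7 were downregulated, which left 4 upregulated and 2 downregulated genes. *baxa*, which opens the mitochondrial outer membrane in apoptosis, *stat1b*, of interferon signaling, *mb21d1*, the DNA sensor cGAS, and *tlr5b*, the flagellin receptor, were upregulated. *birc2*, an inhibitor of apoptosis, and *tmem173*, the adaptor STING that acts downstream of cGAS, were downregulated. *baxa* and *stat1b* were listed for impurity Q alone. *pkz*, a kinase that senses foreign nucleic acid in fish, was upregulated for impurity Q alone. Of stress genes looked for, *cat* (catalase) and *keap1b* were upregulated among 18 oxidative stress genes, and *atf4a* and *hspa8* were downregulated among 28 genes of the unfolded protein response and heat shock.

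By the rule of at least 5 terms, 23 of the 420 genes were listed for impurity Q and for no other compound. Of these, *csnk2b*, *ptgs2b*, *stat1b*, *rpl37*, *psat1*, *baxa*, *gna14*, *b4galt3*, *efna3b*, *keap1b*, and *snap23.1* were upregulated. The downregulated genes were *gnb1b*, *rps8b*, *stx3a*, *eif3i*, *hif1aa*, *oprl1*, *panx1b*, *agxta*, *pfkfb1*, *ndufaf1*, *plppr4a*, and *ppp1r13ba*. *gnb1b* encodes a β subunit of heterotrimeric G proteins, *gna14* an α subunit, *panx1b* a channel that releases ATP, and *agxta* an aminotransferase that detoxifies glyoxylate. Further genes of impurity Q alone, such as *fan1* and *pkz*, belonged to fewer terms. The same count is not given here for the other compounds, so the number is not shown to be particular to impurity Q. A gene that is missing from another table may still lie just under the threshold there, and this was not tested.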

How the data were processed

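RNA from dissected liver was sequenced by a company for the authors, with 1 library per condition. The submitters' processing notes name FastQC, fastp, and HISAT2 and the build GRCz11, with no versions. DEGs were called by the authors at a fold change of at least 2, and no threshold for downregulated genes is given in the sources used here. The deposited tables hold, per term, the number of DEGs and of background genes, the DEGs with direction, and the authors' enrichment p-value, raw and corrected. The p-values in the deposited tables served only to recover the totals and are not printed. A list of 200 to 3000 genes and a background of 5000 to 40000 genes were searched, with a match to within 1e-09. The search was tested on simulated data and recovered the totals of 10 of 10 tables of 800 terms. Depth is unknown, so no interval or floor was computed.

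Groups came from the sample labels. No test was run, since every condition has 1 library. Of the 420 Entrez identifiers, 419 were in the RefSeq table used, and 10 genes have no symbol (5 upregulated and 5 downregulated) and are not named. Symbols are those of the files. Named were genes of 22 fixed lists, genes of the 15 KEGG terms with the highest share (at most 8 per term), genes opposite to all other tables that list them (at least 3), genes of impurity Q alone in at least 5 terms, and the 10 genes per direction in the most terms, 135 in all. Further genes were named as members of the terms described, after their values were seen. Some listed genes are counted and not reported here by name. Members, groups, and lists were chosen with earlier results of these data known. Alternatives were single databases, one entry per symbol, terms without broad ones, and stricter term sizes. Scripts ran in Python 3.11.15 with pandas 2.3.3, numpy 2.4.6, scipy 1.17.1, and matplotlib 3.10.9.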

Additional observations from a re-analysis of the deposited data

Results flagged for a closer look

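Some genes had the direction for impurity Q opposite to that in every other table that lists them, and the differences were not tested. *rpl7a* was downregulated for impurity Q and upregulated in 7 other tables. *b4galt4* was upregulated for impurity Q and downregulated in 5 others (impurities J, I, L, S, and F). *galnt7*, which starts O-linked glycans, was upregulated for impurity Q and downregulated in 3 others (impurities J, R, and F). *gapvd1*, which acts with Rab5 in endocytosis, was downregulated for impurity Q and upregulated in 3 others (azithromycin and impurities R and S).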

How the results depend on the processing

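The number of genes depends on the database. Reactome alone gave 247 genes (115 upregulated and 132 downregulated) and PANTHER alone 27 (13 and 14), whereas KEGG alone gave 304, one entry per symbol 411, and the terms of at most 500 background genes 419. Under these settings the upregulated share stayed between 46.6% and 51.0%. With at least 10 background genes, 749 terms remained. Gene and term pairs, from the printed totals, gave a DEG share of 7.27% in place of 5.97%. With KEGG terms alone, 9 of 14 groups again held more downregulated genes, but membrane transport dropped to 2 upregulated and 3 downregulated genes (10 and 17 with all its terms), the downregulated genes of carbon and amino acid metabolism to 7 (11), and those of DNA repair to 1 (2). With wider sets of terms, added after the data were seen, lipid metabolism had 30 upregulated and 17 downregulated genes (23 and 6) and DNA repair had 10 and 4 (8 and 2). Terms with most genes in 1 direction numbered 45 with at least 8 listed genes (2 mostly upregulated and 43 mostly downregulated) and 69 without the 4 proteasome genes, this setting having been chosen after the data were seen.

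No paired analysis was possible because each condition has 1 library and no test was made. Leaving out a replicate was not possible for the same reason. Depth, levels, and sizes of change are unknown, DEGs outside the pathways are not listed, and the single DMSO library enters every comparison.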
